A study of Mus musculus with 24 samples.

Results

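The Serpinb6 genes of the mouse are a set of close paralogs on chromosome 13, and 5 of them, Serpinb6a, Serpinb6b, Serpinb6c, Serpinb6d and Serpinb6e, were described here in skin. They were taken by gene symbol from a table of 18892 genes, and all 5 were among the 13039 genes that passed the filter on low values (at least 1 FPKM in at least 4 libraries). FPKM divides the fragments of a gene by its length and by the depth of sequencing, so levels of different genes can be compared per length. The set was selected on the FPKM of Serpinb6e, which was lower in mice given an androgen and not restored by a plant extract. For that reason the differences between treatments are given for the 5 genes as descriptions, with no p-value. Calls among them are listed in the same sense. Tests are given for the difference between days. The choice did not compare the days, but it used the same libraries, so the tests of Serpinb6e between days are not independent of it.

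Poly(A) RNA of whole skin was sequenced from 24 mice, 1 library per mouse, with 4 mice in each of 6 groups. DHT+extract mice were injected daily with dihydrotestosterone (DHT, a potent androgen) and had an extract of the Hanlianxiang (HLX) formula, a Chinese herbal preparation, put on the skin. DHT mice had the same injections with solvent on the skin, and control mice had saline injections with solvent on the skin. Skin was taken at day 10 or day 15. Strain, sex and age are not given in the sources used here.

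Serpins are protease inhibitors that present a bait loop to a protease and trap it irreversibly. Those of clade B lack a classical secretion signal and act mainly inside cells, where they guard a cell against its own or its neighbours' proteases. Human SERPINB6, the counterpart of mouse Serpinb6a, inhibits cathepsin G and trypsin-like proteases, and the mouse has added several copies where the human genome has a single gene. Skin holds many serine proteases, among them the kallikreins that loosen cornified cells, the membrane proteases matriptase and prostasin, and the granule proteases of leukocytes.

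Serpinb6d and Serpinb6e, the 2 genes with lower means in DHT than in control mice at both days, lie side by side on chromosome 13. At day 10 the Serpinb6d libraries of DHT and control mice overlapped. The upstream sequences of these 2 genes are the most alike among the 5 genes. The 250 bases before the start of Serpinb6e (chr13:33843409-33843658, minus strand, GRCm38.p6), of Serpinb6d (chr13:33661155-33661404, plus strand, first start listed) and of Serpinb6a (chr13:33936084-33936333, minus strand, first start listed) are shown from the RefSeq table, 5′ to 3′. Capitals mark runs of at least 10 bases that Serpinb6e and Serpinb6d share, which stand in the same order in both, and in Serpinb6a the run it shares with Serpinb6e.
Serpinb6e: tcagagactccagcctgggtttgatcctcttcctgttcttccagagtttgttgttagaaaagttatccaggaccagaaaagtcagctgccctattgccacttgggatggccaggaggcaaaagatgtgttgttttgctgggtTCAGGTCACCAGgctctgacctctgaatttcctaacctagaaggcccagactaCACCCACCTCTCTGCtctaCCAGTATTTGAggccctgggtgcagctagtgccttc
Serpinb6d: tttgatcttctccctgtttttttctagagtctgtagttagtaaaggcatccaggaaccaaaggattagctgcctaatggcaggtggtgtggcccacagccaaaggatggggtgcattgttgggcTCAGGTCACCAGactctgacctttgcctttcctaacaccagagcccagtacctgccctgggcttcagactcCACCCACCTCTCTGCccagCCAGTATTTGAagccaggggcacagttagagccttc
Serpinb6a: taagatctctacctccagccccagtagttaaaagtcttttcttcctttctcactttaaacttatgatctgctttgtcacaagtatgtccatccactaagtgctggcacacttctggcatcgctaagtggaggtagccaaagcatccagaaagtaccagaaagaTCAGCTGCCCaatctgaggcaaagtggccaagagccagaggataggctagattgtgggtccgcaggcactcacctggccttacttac
Over the 230 aligned bases, Serpinb6d and Serpinb6e were identical at 181 (78.7%), with a longest shared run of 15 bases. The first window of Serpinb6a was identical to that of Serpinb6e at 111 of 161 aligned bases (68.9%), with a longest run of 10. Neither the Serpinb6d nor the Serpinb6e window held a CpG, whereas the windows of the other 3 genes held 2 to 20, and the median over all 32851 windows of the table was 6. A search on both strands found TGTTCT, 1 arm of the androgen response element, once in Serpinb6e and in no other window of the 5 genes, and 16.1% of all windows held it. The full androgen response element, which is that arm preceded by its reverse complement with 3 free bases between, was in none of the windows of the 5 genes and in 0.00913% of all windows. The TATA box TATAAA (12.4% of all windows) and the AP-1 site TGANTCA (6.75%) were in none of them, and the GC box GGGCGG (32.7%) was in windows of Serpinb6a, Serpinb6b and Serpinb6c. These matches describe letters in a window and no binding was measured.

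Each of the 24 libraries held 37048896 to 41117262 reads, recovered from the FPKM values, and 16457 to 16943 genes above 0. The tissue label was borne out by keratins and trichohyalin of the inner root sheath, whose 7 markers summed to 5111 to 13548 FPKM in all libraries. Transcripts of kidney (9 markers, summed) stood at 17.6 to 25.3 FPKM in the DHT and 25.1 to 28.9 FPKM in the control libraries of day 10. In the other 4 groups they stood at 0.0561 to 0.374 FPKM. The kidney androgen-regulated gene Kap was listed at 0 in all 16 libraries of those 4 groups. Ddx3y, a Y-linked gene, was at 10.4 to 17.5 FPKM in 4 DHT+extract libraries (day 10 replicate 3 and day 15 replicates 1, 2 and 4) and at 21.4 to 30.6 FPKM in the others. In bulk skin, fewer cells of a type and less RNA per cell cannot be told apart.

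Serpinb6e was the gene with the widest differences of the 5. At day 10 it was at 0.638, 0.905, 0.431 and 1.14 FPKM in DHT+extract mice, at 0.343, 0.834, 0.665 and 1.64 FPKM in DHT mice, and at 12.98, 14.8, 11.4 and 13.2 FPKM in control mice. All 8 DHT-injected libraries lay below all 4 control libraries, and the 2 DHT-injected groups overlapped. The mean was 0.870 ± 0.551 FPKM in DHT mice and 13.1 ± 1.41 FPKM in control mice (SD, n = 4 each), a difference of -2.95 on the log2(FPKM + 1) scale (SE 0.25). A pseudocount of 1 makes this smaller than the ratio of the means, which was 0.0663. With the extract the difference from DHT mice was -0.04 (SE 0.25) and that from control mice -2.999 (SE 0.25).

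At day 15 Serpinb6e was at 0.0668, 0.731, 0.821 and 2.22 FPKM in DHT+extract mice, at 0.217, 0.307, 0.124 and 0.0482 FPKM in DHT mice, and at 7.34, 4.23, 3.63 and 4.67 FPKM in control mice. Again no DHT-injected library reached the lowest control library. The DHT+extract libraries spread widely, with 3 of 4 above every DHT library and 1 below all but the lowest of them. The difference was -2.31 (SE 0.25) for DHT against control, 0.63 (SE 0.25, 95% interval 0.11 to 1.15) for DHT+extract against DHT, and -1.68 (SE 0.25) for DHT+extract against control. The difference from DHT was 0.36 without DHT+extract replicate 4 and 0.89 without replicate 1. The depth behind these values was 3 to 18 reads in DHT libraries, 4 to 141 in DHT+extract libraries and 219 to 465 in control libraries. Kidney marker sums were at 0.0561 to 0.374 FPKM in all 3 groups of day 15, and their part in the levels of Serpinb6e was not tested.

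Hair follicle markers were also lower with DHT. At day 10, 8 of 9 hair shaft (median log2 difference -1.31) and 7 of 7 inner root sheath markers (-0.71) were called lower in DHT than in control mice. At day 15 the counts were 2 of 9 (-0.67) and 6 of 7 (-0.63). Of all genes, 13.8% were called at day 10 and 10.8% at day 15, in either direction. The hair shaft markers summed to 3294 to 4091 FPKM in DHT+extract, 1762 to 4487 FPKM in DHT and 4109 to 7380 FPKM in control libraries of day 10. At day 15 they summed to 5527 to 7639 FPKM in DHT+extract, 2766 to 4590 FPKM in DHT and 5218 to 6309 FPKM in control libraries. Their part in the levels of Serpinb6e and Serpinb6d was not tested.

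**Figure D1:**
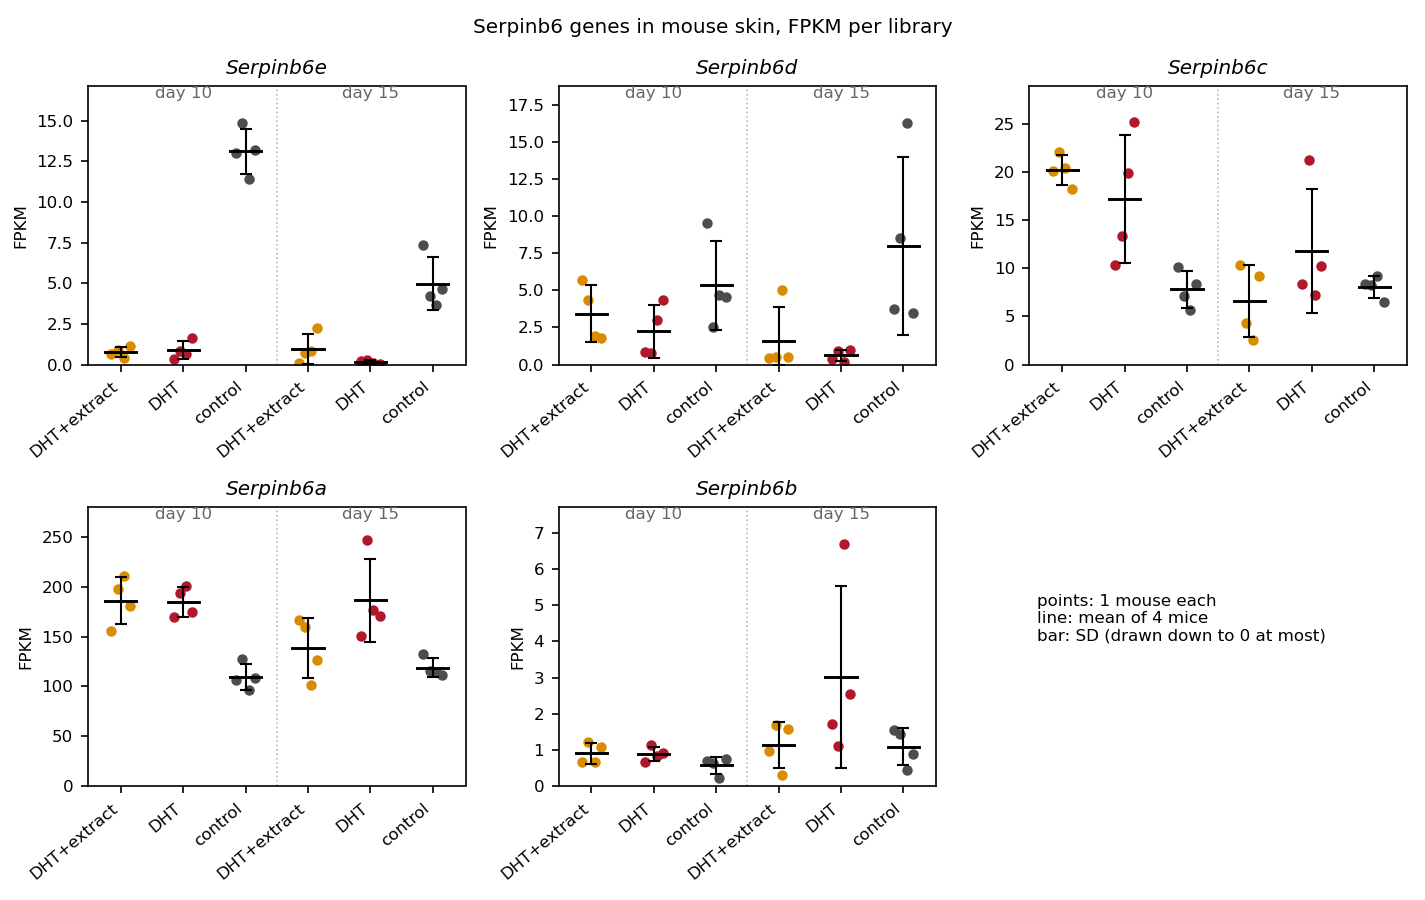
FPKM of the 5 Serpinb6 genes per library (points), with the mean and SD of 4 mice, for DHT+extract, DHT and control at day 10 (left of the dotted line) and day 15. Serpinb6e is between 11.4 and 14.8 FPKM in controls of day 10 and at most 2.22 FPKM in every DHT-injected library, while Serpinb6a is above 95 FPKM throughout.

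Within control mice Serpinb6e also differed between the days. Its mean was 4.97 ± 1.64 FPKM at day 15 and 13.1 ± 1.41 FPKM at day 10 (SD, n = 4 each), and the libraries of the 2 days did not overlap. The log2 difference was -1.27 (SE 0.25, adjusted p = 0.00974 by limma over all genes tested), in a comparison in which 4.81% of genes were called at an adjusted p under 0.05. The choice of the gene used these same libraries, so this test is not independent of it. Serpinb6e also passed the filter on low values only through its control libraries, all at 3.63 FPKM or more. With any 1 library left out the adjusted p stayed between 0.0116 and 0.0446, but with a pseudocount of 0.1 it was 0.117. Kidney marker sums were 0.0561 to 0.257 FPKM in the control libraries of day 15 and 25.1 to 28.9 FPKM in those of day 10, and their part in the fall was not tested. In DHT mice Serpinb6e was at 0.0482 to 0.307 FPKM at day 15 and 0.343 to 1.64 FPKM at day 10, a log2 difference of -0.63 (SE 0.25, adjusted p = 0.109). In DHT+extract mice the difference between days was 0.04 (SE 0.25, adjusted p = 0.933). The difference of DHT from control was 0.64 higher at day 15 than at day 10 (SE 0.35, given as a description), and this turned to -0.32 with a pseudocount of 0.1 and to -0.90 by voom. Over all genes, limma called 0 of 13039 in that difference of differences (352 at an unadjusted p under 0.05, and 0 by voom).

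Ordered by mean FPKM, Serpinb6e ran from control at day 10 (13.1) through control at day 15 (4.97), DHT+extract at day 15 (0.959), DHT at day 10 (0.870) and DHT+extract at day 10 (0.779) to DHT at day 15 (0.174). Neighbours in this order overlapped in their libraries from DHT+extract at day 15 through DHT+extract at day 10, and did not overlap elsewhere.

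Serpinb6d, the neighbour of Serpinb6e, was lower with DHT but varied more between mice. At day 10 it was at 5.70, 4.35, 1.91 and 1.80 FPKM in DHT+extract mice, at 0.825, 0.745, 3.01 and 4.38 FPKM in DHT mice, and at 9.57, 2.53, 4.71 and 4.57 FPKM in control mice. All 3 groups overlapped, and the log2 difference of DHT against control was -1.03 (SE 0.51). At day 15 it was at 0.413, 0.501, 5.04 and 0.525 FPKM in DHT+extract mice, at 0.360, 0.899, 0.1997 and 0.985 FPKM in DHT mice, and at 3.72, 8.51, 16.3 and 3.48 FPKM in control mice. All DHT libraries then lay below all control libraries, with a difference of -2.29 (SE 0.51). DHT+extract minus control was -1.87 (SE 0.51), and -2.38 without DHT+extract replicate 3. DHT+extract minus DHT was 0.42 (SE 0.51), and 1 library, replicate 3, was alone above the control minimum in its group. That replicate 3 was also the only DHT+extract library of day 15 with Ddx3y in the range of the other groups, at 26.0 FPKM.

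No difference between days was called for Serpinb6d. The log2 difference was 0.39 (SE 0.51, adjusted p = 0.673) in control, -0.87 (SE 0.51, adjusted p = 0.272) in DHT and -0.97 (SE 0.51, adjusted p = 0.225) in DHT+extract mice. Without DHT+extract replicate 3 of day 15 the last was -1.48 (adjusted p = 0.0332). Without the 4 libraries with low Ddx3y, which left replicate 3 alone in its group at day 15, it turned to 0.38. The mean order of the 6 groups was control at day 15 (8.00 FPKM), control at day 10 (5.34), DHT+extract at day 10 (3.44), DHT at day 10 (2.24), DHT+extract at day 15 (1.62) and DHT at day 15 (0.611), and every pair of neighbours in it overlapped.

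Serpinb6c went the other way at day 10. It was at 20.1, 22.1, 20.4 and 18.2 FPKM in DHT+extract mice, at 10.3, 13.3, 19.8 and 25.2 FPKM in DHT mice, and at 10.1, 7.11, 5.62 and 8.41 FPKM in control mice. All DHT-injected libraries were above all control libraries, although the lowest DHT library exceeded the highest control library by little. The log2 difference from control was 1.29 (SE 0.33) in DHT+extract and 0.99 (SE 0.33) in DHT mice. At day 15 it was at 10.3, 4.35, 2.51 and 9.17 FPKM in DHT+extract mice, at 8.33, 21.2, 7.25 and 10.3 FPKM in DHT mice, and at 8.36, 8.26, 9.16 and 6.47 FPKM in control mice. The 3 groups overlapped, with a log2 difference from control of -0.40 (SE 0.33) in DHT+extract and 0.39 (SE 0.33) in DHT mice.

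The fall of Serpinb6c between days in DHT+extract mice had the smallest adjusted p of the comparisons of days among the 5 genes. Its mean was 6.59 ± 3.76 FPKM at day 15 and 20.2 ± 1.58 FPKM at day 10 (SD, n = 4 each), with no overlap, a log2 difference of -1.63 (SE 0.33, adjusted p = 0.00658 by limma). In that comparison 9.64% of genes were called. The call held with any 1 library left out (adjusted p between 0.00433 and 0.0269). Leaving out the 4 libraries with low Ddx3y left 1 DHT+extract library at day 15, replicate 3. That library had the lowest Serpinb6c of its group (2.51 FPKM), so that fit cannot show whether the call holds. Kidney marker sums were at most 0.374 FPKM in the libraries of both days of this comparison. Other marker lists did differ in it, with 5 of 8 sebaceous (median log2 difference -0.93), 3 of 5 basal epidermal (-0.66) and 2 of 6 fibroblast markers (-0.58) called lower. Of the inner root sheath markers 6 of 7 (0.71) and of the hair shaft markers 5 of 9 (0.78) were called higher. Their part in the fall was not tested. The differences between days of Serpinb6c were 0.06 (adjusted p = 0.935) in control and -0.55 (adjusted p = 0.289) in DHT mice (SE 0.33 each), and no difference between these was tested. In the order of mean levels, DHT+extract at day 10 (20.2 FPKM) was followed by DHT at day 10 (17.2), DHT at day 15 (11.8), control at day 15 (8.06), control at day 10 (7.82) and DHT+extract at day 15 (6.59), and all neighbours overlapped.

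Serpinb6a, the counterpart of human SERPINB6, was the most abundant of the 5 genes per length. It made up 85.1% to 95.6% of the summed FPKM of the 5 genes in DHT+extract libraries, 84.5% to 93.4% in DHT libraries and 76.2% to 87.7% in control libraries. At day 10 it was at 155, 198, 211 and 181 FPKM in DHT+extract mice, at 169, 193, 201 and 174 FPKM in DHT mice, and at 107, 128, 96.0 and 108 FPKM in control mice. Both DHT-injected groups lay wholly above control, by a log2 difference of 0.76 with the extract and 0.75 without it (SE 0.15 each). At day 15 it was at 166, 159, 101 and 127 FPKM in DHT+extract mice, at 151, 247, 176 and 171 FPKM in DHT mice, and at 133, 116, 115 and 111 FPKM in control mice. DHT libraries were again all above control (0.63, SE 0.15), while DHT+extract libraries overlapped both other groups, at -0.43 (SE 0.15) from DHT and 0.20 (SE 0.15) from control.

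Sums of macrophage and fibroblast markers stood higher in DHT than in control libraries at both days, as did Serpinb6a. The 7 macrophage markers summed to 532 to 764 FPKM in DHT+extract, 600 to 872 in DHT and 258 to 339 in control libraries of day 10. At day 15 they summed to 282 to 1170 FPKM in DHT+extract, 735 to 1184 in DHT and 382 to 645 in control libraries. The 6 fibroblast markers summed to 7899 to 9419 FPKM in DHT+extract, 7070 to 10812 in DHT and 4071 to 6232 in control libraries of day 10. At day 15 they summed to 2742 to 9224 FPKM in DHT+extract, 7358 to 13970 in DHT and 4717 to 5792 in control libraries. The DHT+extract library with the lowest Serpinb6a, replicate 3 of day 15 with 101 FPKM, also had the lowest sums of both lists in its group, at 282 and 2742 FPKM. DHT+extract replicate 2 of day 15 had the highest macrophage sum of its group (1170 FPKM), with Serpinb6a at 159 FPKM. In control mice the macrophage sums of the 2 days did not overlap, while the log2 difference of Serpinb6a between days was 0.12. Their part in the level of Serpinb6a was not tested.

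Between days Serpinb6a did not pass the test. The log2 difference was 0.12 (adjusted p = 0.664) in control, -0.01 (adjusted p = 0.976) in DHT and -0.44 (adjusted p = 0.0623) in DHT+extract mice (SE 0.15 each). The last passed with every library scaled to a common total (-0.51, adjusted p = 0.0202). It was -0.80 without the 4 libraries with low Ddx3y, which left 1 DHT+extract library at day 15, the lowest of its group (101 FPKM). In the order of means, DHT at day 15 (186.2 FPKM), DHT+extract at day 10 (186.2) and DHT at day 10 (184.6) overlapped, DHT+extract at day 15 (138.4) lay wholly below the last of these, and it overlapped control at day 15 (118.6), which overlapped control at day 10 (109.6).

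Serpinb6b, which in the mouse inhibits granzyme A, a protease of cytotoxic lymphocytes, was the lowest of the 5 in control mice of both days. At day 10 it was at 0.658, 1.21, 0.651 and 1.09 FPKM in DHT+extract mice, at 0.669, 1.14, 0.844 and 0.914 FPKM in DHT mice, and at 0.688, 0.634, 0.220 and 0.745 FPKM in control mice. At day 15 it was at 0.955, 1.70, 0.311 and 1.58 FPKM in DHT+extract mice, at 1.73, 1.098, 6.68 and 2.56 FPKM in DHT mice, and at 1.55, 1.44, 0.454 and 0.894 FPKM in control mice. The groups overlapped at both days, and 1 DHT library, replicate 3 of day 15, was far above all others.

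That library also held the highest levels of the proteases of cytotoxic cells. Granzyme A (Gzma) was at 32.7 FPKM there and at 2.81 to 14.6 FPKM in the other 3 DHT libraries of day 15. Granzyme B (Gzmb) was at 29.6 FPKM there and at 1.495 to 12.8 FPKM in the others. The T and NK cell markers summed to 24.3 FPKM there and 7.70 to 16.0 FPKM in the others, and neutrophil markers to 3084 FPKM and 147 to 328 FPKM. Their part in the level of Serpinb6b was not tested. Serpinb6b gave a log2 difference between days of 0.91 (SE 0.29, adjusted p = 0.057) in DHT mice, which was 0.54 (adjusted p = 0.255) without replicate 3 of day 15 and 1.16 (adjusted p = 0.0191) without replicate 2. It was 0.39 (adjusted p = 0.436) in control and 0.12 (adjusted p = 0.832) in DHT+extract mice (SE 0.29 each). Its group means ran from DHT at day 15 (3.02 FPKM) through DHT+extract at day 15 (1.14), control at day 15 (1.08), DHT+extract at day 10 (0.901) and DHT at day 10 (0.891) to control at day 10 (0.572), each overlapping the next.

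**Figure D2:**
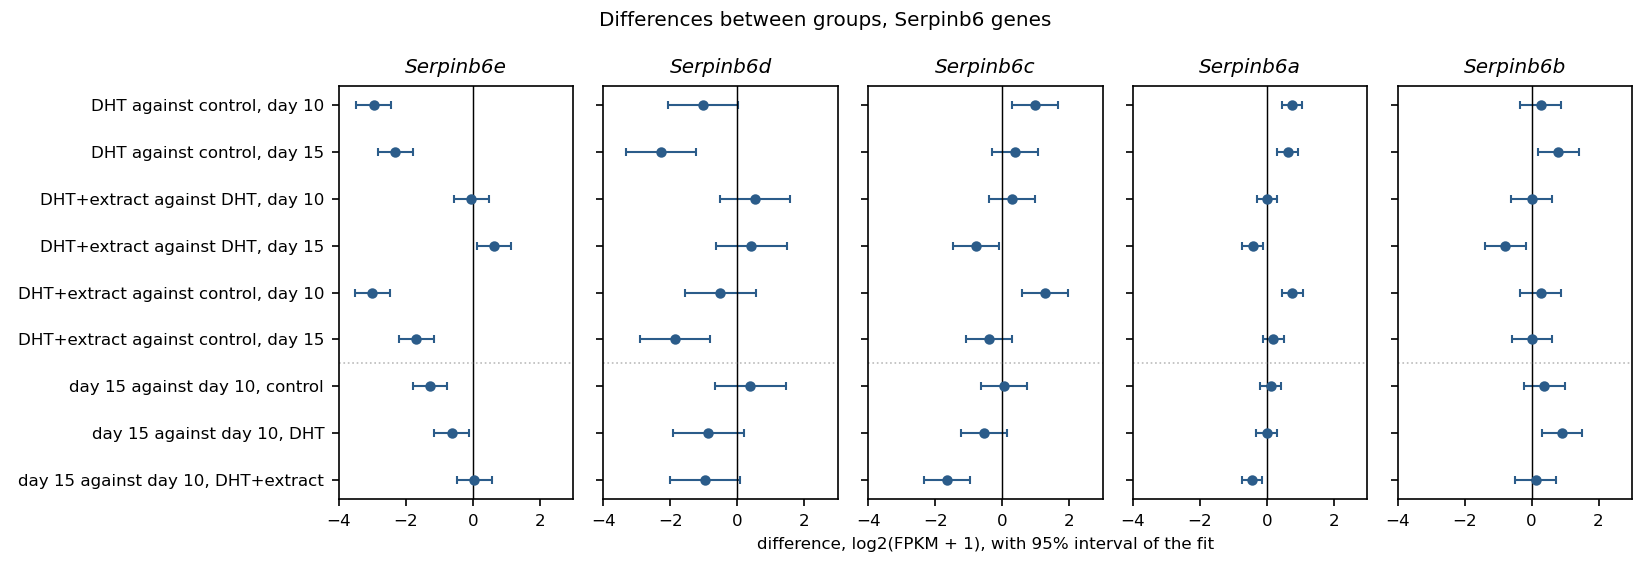
Log2(FPKM + 1) differences of the 5 genes with the 95% interval of the fit, for the 6 comparisons of treatments (above the dotted line) and the 3 comparisons of day 15 with day 10 (below it), each as first-named group minus second. Serpinb6e and Serpinb6d lie left of 0 for DHT against control (-2.95 and -1.03 at day 10) and Serpinb6a right of it (0.75).

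The calls among the 5 genes in the comparisons of treatments are listed as a description only. The choice rested on these comparisons, so the calls of Serpinb6e are no test of it. Nothing is read from the counts. For DHT against control, 3 were called at day 10, where 13.8% of all genes were called (Serpinb6a and Serpinb6c higher, Serpinb6e lower), and 3 at day 15, against 10.8% (Serpinb6a higher, Serpinb6d and Serpinb6e lower). For DHT+extract against DHT, limma called 0 of 5 at day 10 (0 at an unadjusted p under 0.05, 0 by voom), against 0.192% of all genes, and 1 at day 15, against 19.7% (Serpinb6a, lower), with 4 of 5 under 0.05 unadjusted. At that day Serpinb6b gave -0.78 (SE 0.29) and Serpinb6c -0.79 (SE 0.33) against DHT. Without the libraries with low Ddx3y, which left 1 DHT+extract library at that day, these differences were -1.43 and -1.75. Serpinb6b was called without DHT replicate 1, DHT replicate 2 or DHT+extract replicate 2. For DHT+extract against control, 3 were called at day 10, against 3.24% (Serpinb6a and Serpinb6c higher, Serpinb6e lower), and 1 at day 15, against 0.314% (Serpinb6e, lower). The call of Serpinb6c in DHT mice at day 10 ended without any 1 of 7 of the 8 libraries, and in DHT+extract mice without any 1 of the 8. The call of Serpinb6a against control at day 15 ended without DHT replicate 2 or control replicate 4, that against DHT without any 1 of 5 of the 8 libraries, with no filter, with median-of-ratios scaling and in a fit of only the 2 groups, and that of DHT+extract against control at day 10 without DHT+extract replicate 3. The call of Serpinb6e in DHT+extract against control at day 15 ended without DHT+extract replicate 1 or control replicate 1, with a pseudocount of 0.1, without the libraries with low Ddx3y, and in a fit of only the 2 groups. The median log2 difference of the 5 for DHT against control was 0.27 at day 10 (-0.02 over all genes) and 0.39 at day 15 (-0.03), since members rose and fell.

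The comparisons of days gave 1 called member in control mice (Serpinb6e), none in DHT mice, where 8.47% of all genes were called and 2 members were under 0.05 unadjusted (0 called by voom), and 1 in DHT+extract mice (Serpinb6c). Within a day, the comparisons of DHT and of DHT+extract with control share the control libraries, and those of DHT with control and of DHT+extract with DHT share the DHT libraries.

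The neighbours on chromosome 13 were described in their chromosomal order, by RefSeq. Serpinb6d, Serpinb6e, Serpinb6c and Serpinb6a stand next to each other and Serpinb6b further off, beyond Serpinb9 and Serpinb1 genes. In that stretch the log2 differences of DHT from control were -1.03, -2.95, 0.99 and 0.75 at day 10 and -2.29, -2.31, 0.39 and 0.63 at day 15, in the order Serpinb6d, Serpinb6e, Serpinb6c and Serpinb6a. Flanking genes, chosen after their values were seen, differed less. Ripk1 rose to 4.04 ± 0.355 FPKM in DHT mice, against 3.01 ± 0.163 FPKM in control mice at day 10 (log2 difference 0.33, SE 0.10, adjusted p = 0.029), and gave 0.26 (adjusted p = 0.0792) at day 15. Nqo2 (0.17, adjusted p = 0.114), Bphl (0.04, adjusted p = 0.877) and Wrnip1 (-0.01, adjusted p = 0.934) were not called at day 10.

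**Figure D3:**
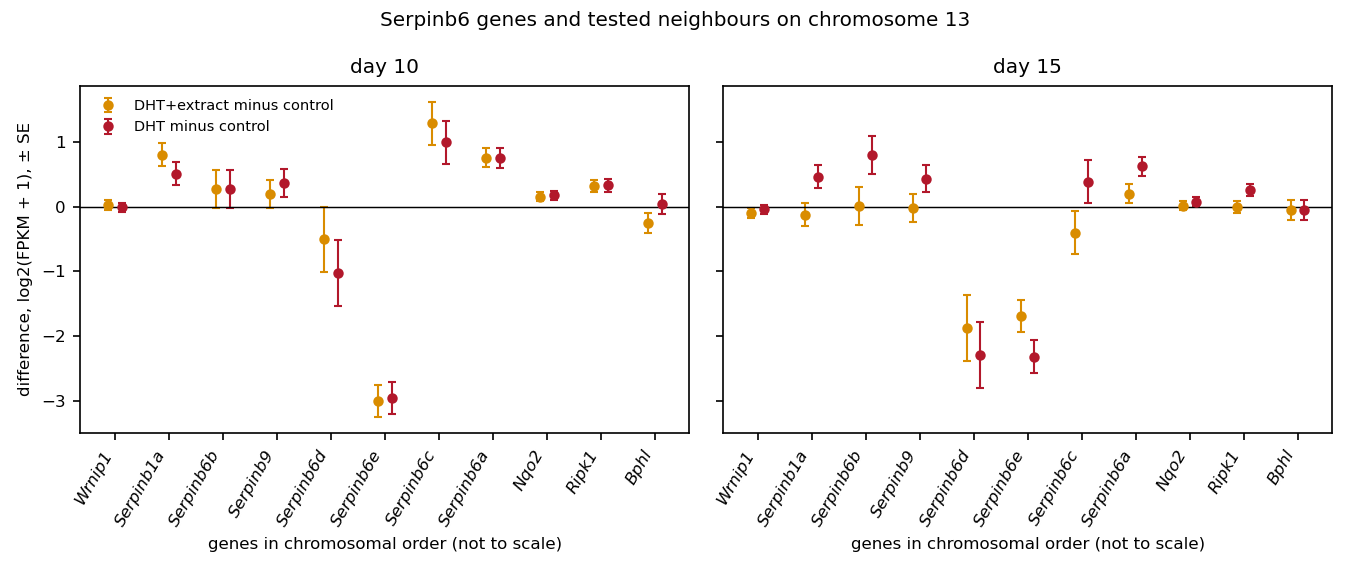
Log2(FPKM + 1) difference from control, with its SE, of the tested genes around the Serpinb6 genes in chromosomal order (not to scale), for DHT+extract and DHT mice at day 10 and day 15. Serpinb6d and Serpinb6e lie below 0 at both days (-2.29 and -2.31 for DHT at day 15). For DHT at day 10 Wrnip1 lies near 0 (-0.01), while Ripk1 (0.33) and Serpinb1a (0.51) lie above it.

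Of 11 other clade B serpins of chromosome 13, 5 were in the table and 2 were tested, Serpinb1a, which inhibits neutrophil elastase and cathepsin G, and Serpinb9, which inhibits granzyme B. Serpinb1a fell in DHT+extract mice relative to DHT mice at day 15, with 8.71 ± 1.88 FPKM against 13.4 ± 1.66 FPKM (log2 difference -0.59, SE 0.18, adjusted p = 0.0248). It was higher than control with the extract at day 10, at 15.7 ± 1.63 against 8.69 ± 2.22 FPKM (0.80, SE 0.18, adjusted p = 0.0172). Between days it fell in DHT+extract mice, with 8.71 FPKM at day 15 against 15.7 FPKM at day 10 (-0.80, SE 0.18, adjusted p = 0.00927), as Serpinb6c did. This call held with any 1 library left out (adjusted p up to 0.0364). The call against DHT ended without 4 of the 8 libraries (adjusted p up to 0.078) and in a fit of only those groups (adjusted p = 0.142), and the call against control without 5 of the 8 (adjusted p up to 0.0747). Serpinb9 was called in none of the comparisons by limma. Its smallest adjusted p values were 0.134 for DHT+extract against DHT at day 15 (-0.46, SE 0.21) and 0.15 between days in DHT mice (0.49, SE 0.21), both under 0.05 before adjustment. Its levels were 2.43 ± 0.309 FPKM in DHT and 1.66 ± 0.251 FPKM in control mice at day 10. Serpinb1c stayed under the filter, at 0.0842 ± 0.0250 FPKM in DHT and 0.451 ± 0.0466 FPKM in control mice at day 10, and was not tested.

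Of 12 clade B serpins of chromosome 1, 9 were tested, and for DHT against control 2 fell and none rose at each day, against 13.8% of all genes called at day 10 and 10.8% at day 15. Serpinb11 fell at both days, to 8.59 ± 2.81 FPKM in DHT mice against 15.6 ± 2.71 FPKM in control mice at day 10 (log2 difference -0.82, SE 0.18, adjusted p = 0.00897), and by 0.68 on the log2 scale at day 15 (SE 0.18, adjusted p = 0.0259). Serpinb13, an inhibitor of lysosomal cathepsins, fell at day 10 (-0.53, SE 0.16, adjusted p = 0.0347). Serpinb5 (maspin), an abundant keratinocyte serpin, fell at day 15, to 140.3 ± 21.7 FPKM in DHT mice against 194.1 ± 12.9 FPKM in control mice (-0.48, SE 0.13, adjusted p = 0.0308). The call of Serpinb11 at day 10 held with any 1 library left out, while those of Serpinb13, Serpinb5 and Serpinb11 at day 15 each ended without 5 of the 8 libraries (adjusted p up to 0.128, 0.0976 and 0.0812). The Serpinb13 call also ended with a pseudocount of 0.1 (adjusted p = 0.0505), and the Serpinb5 call with a common total (adjusted p = 0.0546). The medians of the 9 were 0.12 at day 10 (-0.02 over all genes) and -0.03 at day 15 (-0.03). In DHT+extract mice 3 of 9 fell between days, Serpinb3b, Serpinb8 and Serpinb10, by 0.81, 0.32 and 0.52 on the log2 scale. In that comparison 9.64% of all genes were called, and its marker shifts are given with Serpinb6c. The 3 calls ended without 5, 3 and 5 of the 8 libraries (adjusted p up to 0.0697, 0.0732 and 0.158). All 3 also ended in a fit of only the groups compared (adjusted p = 0.0737, 0.13 and 0.149), and Serpinb10 with the replicate block (adjusted p = 0.0535). Without the libraries with low Ddx3y, which left 1 DHT+extract library at day 15, Serpinb8 gave -0.14 and Serpinb10 -0.38.

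Serine proteases, which these inhibitors can meet, were tested for 17 genes of a list of 21. For DHT against control, St14 (matriptase) and Prss8 (prostasin) were called lower at both days and Klk7, a kallikrein of the cornified layer, at day 15. None was called higher (13.8% of all genes were called at day 10 and 10.8% at day 15). The list as a whole did not fall, since the medians of the 17 were 0.29 at day 10 (-0.02 over all genes) and 0.24 at day 15 (-0.03). Prss8 was at 12.2 ± 2.41 FPKM in DHT mice against 19.6 ± 0.632 FPKM in control mice at day 15 (log2 difference -0.66, SE 0.12, adjusted p = 0.00524), a call that held with any 1 library left out. St14 was at 32.6 ± 6.07 FPKM in DHT mice against 48.0 ± 5.67 FPKM in control mice at day 15 (-0.56, SE 0.13, adjusted p = 0.0164). At day 10 the differences were -0.44 for both (SE 0.13 for St14 and 0.12 for Prss8, adjusted p = 0.0341 and 0.025), and Klk7 gave -0.46 at day 15 (SE 0.15, adjusted p = 0.0461). Those 3 calls ended without 6, 4 and 7 of the 8 libraries (adjusted p up to 0.122, 0.102 and 0.156). The St14 call of day 10 also ended with a common total (adjusted p = 0.0537). The Klk7 call also ended with no filter, with either other scaling and in a fit of only the groups compared (adjusted p up to 0.0814). The St14 call of day 15 ended without control replicate 3 or without DHT replicate 2 or 3 (adjusted p up to 0.063). It also ended in a fit of only the groups compared (adjusted p = 0.0549).

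At day 15, 2 of the 17 proteases, St14 and Prss8, were called higher with the extract than in DHT mice. In that comparison 19.7% of all genes were called. St14 was at 54.0 ± 9.76 FPKM in DHT+extract mice against 32.6 ± 6.07 FPKM in DHT mice (0.71, SE 0.13, adjusted p = 0.00189), and Prss8 at 18.3 ± 2.003 against 12.2 ± 2.41 FPKM (0.56, SE 0.12, adjusted p = 0.0052). These calls held with any 1 library left out, but not in a fit of only the DHT+extract and DHT groups of that day (adjusted p = 0.134 and 0.142). Serpinb6e, for comparison, was at 0.0668 to 2.22 FPKM in DHT+extract and 0.0482 to 0.307 FPKM in DHT mice at that day. The 7 inner root sheath markers summed to 11344 to 13548 FPKM in DHT+extract libraries, 5615 to 9970 FPKM in DHT libraries and 9871 to 12773 FPKM in control libraries of day 15, and their part in the St14 and Prss8 values was not tested.

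Between days, 6 of 17 proteases fell in DHT+extract mice, Klk6, Klk7, Klk8, Klk10, Klk11 and Prss27, where 9.64% of all genes were called. The shifts in sebaceous, epidermal and hair markers given with Serpinb6c belong to the same comparison. Klk6 was at 11.7 ± 4.84 FPKM at day 15 against 38.8 ± 7.43 FPKM at day 10 (log2 difference -1.74, SE 0.29, adjusted p = 0.00296), and Klk11 fell by 1.15 (SE 0.26, adjusted p = 0.00989). Both held with any 1 library left out, and the other 4 did not. Those 4 also ended in a fit of only the groups compared (adjusted p from 0.0697 for Klk8 to 0.188 for Prss27). Klk10 and Prss27 ended as well with no filter and with median-of-ratios scaling. In DHT mice, where 8.47% of all genes were called, Klk5 and Klk8 fell between days by 0.86 and 1.16 (adjusted p = 0.0164 and 0.0299). Both calls ended without DHT replicate 4 of day 10 or replicate 3 of day 15 (adjusted p up to 0.0722 and 0.14). They also ended in a fit of only the groups compared (adjusted p = 0.157 and 0.149). The Klk8 call ended as well without replicate 2 or 3 of day 10, and with median-of-ratios scaling (adjusted p = 0.0661). In the same comparison 4 of 6 differentiating epidermal markers (median log2 difference -1.24) and 3 of 8 sebaceous markers (-0.73) were called lower, and their part was not tested. Gzmb rose in DHT mice, to 11.7 ± 12.9 FPKM at day 15 against 0.645 ± 0.245 FPKM at day 10 (2.31, SE 0.59, adjusted p = 0.0242). The Gzmb call ended without DHT replicate 3 of day 15, the library with the highest Serpinb6b, and without 3 of the day 10 libraries (adjusted p up to 0.117). By voom (adjusted p = 0.0939) and in a fit of only the groups compared (adjusted p = 0.165) it ended too. The medians of the 17 were -0.41 in DHT+extract mice (-0.06 over all genes) and -0.20 in DHT mice (-0.08).

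Genes with the most similar pattern were found by the root mean square difference over the 24 libraries between log2(FPKM + 1) values centred on each gene's mean. The measure is 0 for identical patterns, and Serpinb6e itself lies 1.29 from a flat line. Nearest to Serpinb6e were Hamp2 (0.557), encoding a hepcidin, Serpina3b (0.560), a clade A serpin, Cyp2g1 (0.760), a cytochrome P450, Rnase12 (0.893) and Mup20 (0.928), a major urinary protein. Mean levels of Hamp2 were 0.0297 FPKM in DHT+extract, 0 in DHT and 1.85 in control mice at day 15, and 0.0584, 0.0884 and 5.46 FPKM in the same groups at day 10. Serpina3b was more abundant, at 26.5 FPKM in DHT+extract, 19.7 in DHT and 71.3 in control mice at day 10. Nearest to Serpinb6d were Mup20 (0.642), Aadacl2fm1 (0.688), Serpina3b (0.736), Scrg1 (0.767) and Alox12e (0.774), with Serpinb6d 1.04 from a flat line. Serpina3b and Mup20 stood in both lists of 5.

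Nearest to Serpinb6c were Rarres1 (0.211), Cyp2b10 (0.313), Tnmd (0.316), Acoxl (0.333) and Aadacl3 (0.348), with Serpinb6c 0.718 from a flat line. Rarres1 was at 223.8 FPKM in DHT+extract, 199.0 in DHT and 72.5 in control mice at day 10, and at 84.4, 131.1 and 72.7 FPKM in the same groups at day 15. Nearest to Serpinb6b were Dtx3l (0.197), Nmi (0.211), Serpinb9 (0.213), Irak2 (0.217) and Gsap (0.218), with Serpinb6b 0.527 from a flat line. The group means of Serpinb6a spanned 0.76 on the log2 scale, under the minimum of 1, so no gene is named for it.

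**Figure D4:**
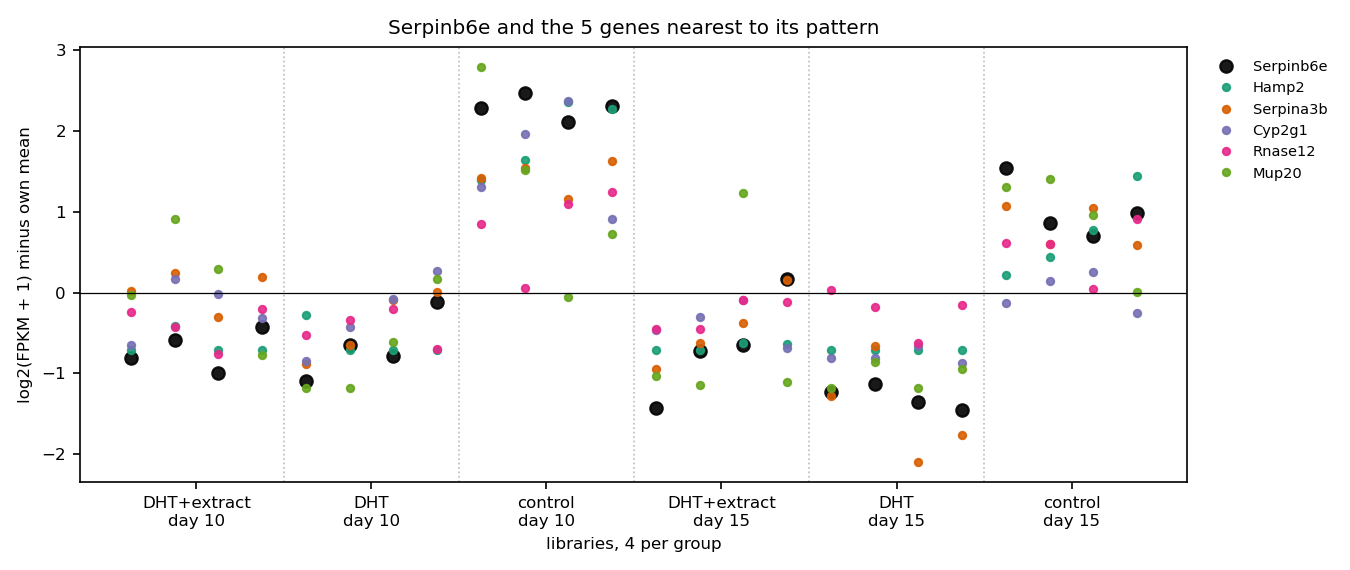
Log2(FPKM + 1) minus the gene's own mean over the 24 libraries, for Serpinb6e (large black points) and the 5 genes nearest to its pattern, by group with 4 libraries each. The mean FPKM of each of the 6 genes is higher in both control groups than in every DHT-injected group, although single libraries of Cyp2g1 and Mup20 overlap, and Hamp2 (root mean square difference 0.557) is closest to Serpinb6e.

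The 5 transcripts are alike enough that reads could be shared. Between pairs of the genes the GENCODE transcripts were 79.0% to 88.6% identical. Of 100-base stretches, 12.2% of those in Serpinb6a occurred in another gene and none of those in the other 4 genes did. Of 50-base stretches, 20.8% of Serpinb6a, 10.4% of Serpinb6c, 3.13% of Serpinb6b, 3.11% of Serpinb6d and 0.969% of Serpinb6e occurred elsewhere. The way the counting treated reads with several placements is not given in the sources used here.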

How the data were processed

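The authors' deposited table gives FPKM per gene symbol for 24 skin libraries. Reads were trimmed with fastp, aligned with HISAT2 to GRCm39 and counted with HTSeq, per the submitters' processing notes, and tool versions are not given in the sources used here. FPKM of each library divides by gene length and depth, so highly abundant genes can lower the values of others. Whole reads were recovered from the steps of the FPKM values for 18715 of 18715 genes above 0 (100%, tolerance 0.01 of a read for low and 0.05 for high genes), 37048896 to 41117262 per library.

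Values were transformed as log2(FPKM + 1). Genes with at least 1 FPKM in at least 4 libraries were tested (13039, with 5853 removed). The model held 6 group means over 24 libraries (limma 3.58.1, R 4.3.3, eBayes with trend and robust, two-sided). The Benjamini-Hochberg method was applied over genes in each of 10 comparisons, with calls at an adjusted p under 0.05. Errors are SE of the fit or SD over 4 mice. Groups came from sample titles. The fit was tested on simulated data with known answers. The members and gene lists were chosen with earlier results of these data known. Named genes are the 5 members, the called genes of each list (up to 6 by p) and the 5 genes nearest in pattern to a member whose group means span more than 1. Promoter windows came from the RefSeq table of build GRCm38.p6 (all 5 genes matched), neighbour order from RefSeq, and transcripts from GENCODE vM21. No protein sequence was used.

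Alternatives were a pseudocount of 0.1, no filter, 2 other scalings, a replicate block, voom on the recovered reads, only the groups compared, each library left out, and, chosen after seeing the data, the fit without the 4 DHT+extract libraries with Ddx3y under 20 FPKM. That fit leaves 1 DHT+extract library at day 15, which is assumed to vary like the other groups.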

Additional observations from a re-analysis of the deposited data

Results flagged for a closer look

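Of 42 groups of 4 libraries tested for a sample far from the rest, 1 was past the critical value of Dixon's test for 4 samples, and chance flags about 1 in 20 groups. It was Serpinb6d in DHT+extract mice at day 15, where replicate 3 stood at 5.04 FPKM and the nearest other library at 0.525 FPKM, a gap of 0.9758 of the group's range. Without that library the log2 difference of Serpinb6d for DHT+extract against DHT was -0.0906, and with it 0.42.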

How the results depend on the processing

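Counts of called genes moved with the processing. DHT against control at day 15 gave 724 genes in a fit of only the groups compared (1408 as reported). DHT+extract against DHT gave 101 with no filter and 16 by voom at day 10 (25 as reported), and at day 15 it gave 0 in a fit of only the groups compared (2503 at an unadjusted p under 0.05) and 3845 without the libraries with low Ddx3y (2563 as reported). DHT+extract against control gave 2229 in a fit of only the groups compared at day 10 (423). At day 15 (41) it gave 11 with a pseudocount of 0.1, 16 with no filter, 16 with a common total, 26 with the replicate block and 13 by voom. It gave 0 both with only the groups compared (1663 unadjusted) and without the libraries with low Ddx3y (1754 unadjusted). Day 15 against day 10 gave 375 with median-of-ratios scaling, 947 with a common total and 1938 with only the groups compared in control mice (627). It gave 501 with median-of-ratios scaling and 8 with only the groups compared in DHT mice (1104), and 1932 with a common total and 440 with only the groups compared in DHT+extract mice (1257). With 1 library left out, DHT against control ranged from 536 to 2405 genes at day 10 and 363 to 2240 at day 15. DHT+extract against DHT ranged from 14 to 82 and 1221 to 2947, and DHT+extract against control from 83 to 497 and 0 to 2665. Day 15 against day 10 ranged from 99 to 828 in control, 146 to 1522 in DHT and 425 to 2531 in DHT+extract mice, and the difference of differences from 0 to 3. The causes were not tested.

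The share of higher genes among those called also moved. With a common total it was 63% for DHT against control at day 10 (49.1% as reported) and 61.1% at day 15 (39.2%). For DHT+extract against DHT it was 37.5% at day 10 (48%) and 29% at day 15 (52.6%), and against control 79.2% at day 10 (67.8%). Between days in DHT+extract mice it was 8.28% (21.9%). With median-of-ratios scaling it was 77.9% for DHT+extract against control at day 10, and between days 59.7% in control (30.8%), 54.1% in DHT (19.1%) and 46% in DHT+extract mice. That scaling moved the median of all genes by at most 0.103 (log2, between days in DHT mice).

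Among the members, some differences that were not called turned sign. For DHT+extract against DHT at day 10, Serpinb6a was -0.0104 with a common total and -0.0558 without the libraries with low Ddx3y. Serpinb6b was -0.0098 with a pseudocount of 0.1, -0.0054 with a common total and -0.0217 by voom, and Serpinb6e was 0.0546 without the libraries with low Ddx3y. For DHT+extract against control at day 15, Serpinb6a was -0.22 without those libraries, and Serpinb6b was -0.0244 with a pseudocount of 0.1, -0.032 by voom and -0.63 without those libraries. Between days, Serpinb6a in DHT mice was 0.11 with median-of-ratios scaling. In DHT+extract mice Serpinb6b was -0.59 and Serpinb6d 0.38 without those libraries (0.12 and -0.97 as reported), and Serpinb6e was -0.18 with a pseudocount of 0.1, -0.36 by voom and -0.0488 without those libraries. The difference of differences of Serpinb6e (0.64 as reported) was -0.32 with a pseudocount of 0.1 and -0.90 by voom. With 1 library left out, DHT+extract against DHT at day 10 ranged from -0.0558 to 0.0906 for Serpinb6a, -0.075 to 0.0649 for Serpinb6b and -0.19 to 0.14 for Serpinb6e, and at day 15 from -0.0906 to 0.61 for Serpinb6d (0.42 as reported). DHT+extract against control at day 15 ranged from -0.15 to 0.23 for Serpinb6b. Between days the range was -0.0734 to 0.18 for Serpinb6c and -0.0020 to 0.67 for Serpinb6d in control mice, -0.15 to 0.0837 for Serpinb6a in DHT mice, and -0.0065 to 0.34 for Serpinb6b and -0.23 to 0.30 for Serpinb6e in DHT+extract mice.

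Replicate numbers did not pair the mice. Residuals of libraries with the same number correlated at a mean of 0.0047 (-0.631 to 0.509), and 5 of 24 libraries correlated best with their own number. With the replicate block the count of calls for DHT+extract against control at day 15 was 26, as given above, and Serpinb6c was no longer called for DHT against control at day 10. At 3 to 18 reads per library, Serpinb6e in DHT mice of day 15 carries wide counting error.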
